A study of Mus musculus with 15 samples.

Results

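The SoxC genes Sox4, Sox11 and Sox12, the SoxD genes Sox5, Sox6 and Sox13 and the SoxF genes Sox7, Sox17 and Sox18 were followed in RNA-seq libraries of mouse brain tumour tissue. These 9 genes, of 24421 in the deposited tables, were chosen by family and symbol, and each was found in all 3 tables. Each passed the filter on low values, a mean of at least 10 over the libraries compared. The tumours come from a pair of models that the labels call HGG and EPN. The groups are EPN tumours with gain of function of Sox9 (EPN Sox9-GOF), EPN controls, HGG tumours with gain of function of Sox9 (HGG Sox9-GOF), HGG tumours labelled with loss of function of Sox9 (HGG Sox9-LOF) and HGG controls, with 3 libraries each and 15 in all. The labels give neither strain, age and sex nor the construct, promoter and target cells behind either Sox9 genotype, and every library is of whole tumour tissue. Separate animals are not stated for the replicates, so p-values here cover only the spread among the libraries of a group, which may be technical.

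SOX proteins bind DNA through a high-mobility-group box and are sorted into groups by the likeness of that box. SoxC proteins activate transcription in neural progenitors and newly formed neurons. SoxD proteins carry no known activation domain of their own: they pair through a coiled coil and act beside other factors, in mouse cartilage as partners of the SoxE protein SOX9 and in the mouse oligodendrocyte lineage against SoxE proteins. SoxF proteins are factors of blood and lymphatic endothelium, so that in brain their transcripts are known mainly from vessels.

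Promoter sequence is shown for Sox12, Sox13 and Sox5 as examples. They were picked because the GC content of the transcript, given with the results, ran with their fold changes in HGG. The GC content and motifs of promoters were not tested against fold change. The windows run from 250 bases before to 50 bases after a transcription start, read 5′ to 3′ on the minus strand, and were taken from RefSeq for the build GRCm38.p6. Capitals mark ACAAT and ACAAAG (cores of SOX sites), CGGAAG (a core of ETS sites) and GGGCGG (a GC box), each searched on both strands, and matches may overlap one another. The window of Sox12 is at chr2:152397997-152398296, that of Sox13 at chr1:133424163-133424462 and that of Sox5 at chr6:143947057-143947356. The Sox5 window lies inside the annotated span of the gene, far from its 5′ end at 144781977, so it belongs to an internal start. Use of these starts in the tumours was not tested.
Sox12: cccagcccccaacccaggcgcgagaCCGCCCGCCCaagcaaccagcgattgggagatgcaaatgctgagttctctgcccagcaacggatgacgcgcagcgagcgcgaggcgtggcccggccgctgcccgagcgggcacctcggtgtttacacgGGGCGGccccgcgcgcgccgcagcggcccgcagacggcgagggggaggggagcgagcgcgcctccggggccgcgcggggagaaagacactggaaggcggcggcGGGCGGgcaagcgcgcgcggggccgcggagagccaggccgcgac
Sox13: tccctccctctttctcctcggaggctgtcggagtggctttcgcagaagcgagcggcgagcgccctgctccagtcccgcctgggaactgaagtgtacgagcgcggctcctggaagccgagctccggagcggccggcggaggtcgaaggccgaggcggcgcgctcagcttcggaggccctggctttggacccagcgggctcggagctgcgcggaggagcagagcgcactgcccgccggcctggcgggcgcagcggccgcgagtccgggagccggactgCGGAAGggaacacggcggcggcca
Sox5: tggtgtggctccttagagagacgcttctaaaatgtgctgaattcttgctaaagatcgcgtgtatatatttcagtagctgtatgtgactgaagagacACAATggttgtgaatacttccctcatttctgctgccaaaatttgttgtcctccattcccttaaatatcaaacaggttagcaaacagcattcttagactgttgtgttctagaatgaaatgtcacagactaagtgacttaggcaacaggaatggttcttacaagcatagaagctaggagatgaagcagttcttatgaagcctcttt
The Sox12 window held 76.7% G and C and 4 matches to GGGCGG, which 35.7% of 32851 promoter windows of this length hold at least once. The Sox13 window held 73.3% G and C and 1 match to CGGAAG, which 16.9% of the windows hold. The Sox5 window held 39.7% G and C and 1 match to ACAAT, which 31.0% of the windows hold. The median window held 52.7% G and C. Promoter windows were matched for 6 of the 9 genes.

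The libraries held 4665428 to 14119140 reads in genes (median 10578708). Levels are given as rescaled counts, which are the reads of each library divided by 1 size factor per library computed over all 15 libraries. Sox9, the check of the labels, had 2055, 1834 and 2692 rescaled counts in EPN Sox9-GOF and 1045, 1040 and 1189 in EPN controls. In HGG it had 1275, 1537 and 1391 in Sox9-GOF, 739, 579 and 395 in the HGG libraries labelled Sox9-LOF and 218, 285 and 310 in controls, so its transcript was higher, not lower, in each library labelled Sox9-LOF than in each control. HGG controls differed from one another in genes of other cell types: the summed count of 10 choroid plexus genes was 110891, 1048 and 234, and that of 10 lymphocyte genes was 1882, 39.0 and 3415. Across the 15 libraries the summed counts were 9017 to 123612 for 10 astrocyte genes, 9036 to 173295 for 14 oligodendrocyte lineage genes and 1978 to 9274 for 20 endothelial genes, with reads for all of these genes. The part of choroid plexus and lymphocyte RNA in the results was not tested.

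Set against their own controls, none of the 9 genes passed limma's test with Benjamini-Hochberg adjustment over all genes tested (threshold 0.05) in EPN Sox9-GOF, in HGG Sox9-GOF or in the HGG libraries labelled Sox9-LOF. In each of these comparisons limma called 0% of all genes tested. At an unadjusted limma p under 0.05 there was 1 of the 9 genes in EPN Sox9-GOF (Sox17), 3 in HGG Sox9-GOF (Sox13, Sox5 and Sox7) and 1 in the HGG libraries labelled Sox9-LOF (Sox13), beside 15.1%, 22.7% and 17.3% of all genes tested in the same order. DESeq2 on the recovered reads called 0 of 9 in EPN Sox9-GOF (5.63% of all genes tested) and 1 of 9, Sox13, in both HGG comparisons (13.6% of all genes tested for Sox9-GOF and 7.84% for the HGG libraries labelled Sox9-LOF). EdgeR's quasi-likelihood test called 0 genes in each comparison. The HGG comparisons share their controls, so their values are given side by side. Groups did not overlap for 2 of 9 genes in EPN Sox9-GOF against controls, for 4 of 9 in HGG Sox9-GOF and for 1 of 9 in the HGG libraries labelled Sox9-LOF, beside 22%, 30.5% and 24.5% of all genes tested. With 3 libraries against 3, an exact permutation test cannot give a p below 0.1.

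**Figure D1:**
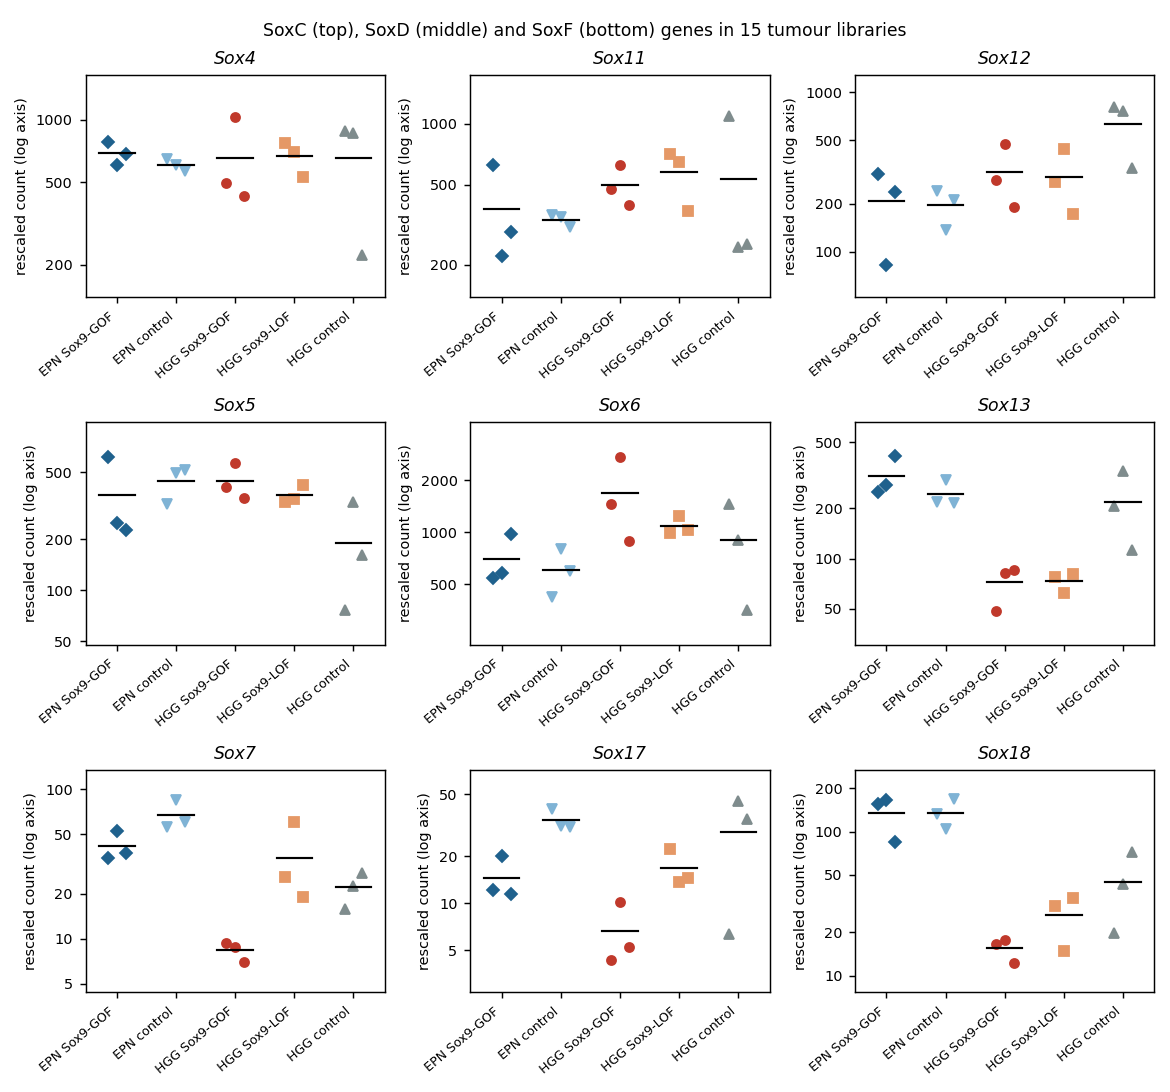
Rescaled count (log axis) of each SoxC (top), SoxD (middle) and SoxF (bottom) gene in the 3 libraries of each group (points), with the group mean as a bar; each panel has its own axis. Sox13, Sox7 and Sox18 had lower counts in every HGG Sox9-GOF library than in every HGG control, and every EPN Sox9-GOF library lay above every HGG Sox9-GOF library for Sox13, Sox7, Sox17 and Sox18.

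Sox4 and Sox11, the SoxC genes best known from progenitors and young neurons, overlapped between each Sox9 group and its own controls. Sox4 averaged 691 ± 89.1 rescaled counts in EPN Sox9-GOF and 608 ± 40.9 in EPN controls (SD, n = 3 each). In HGG it averaged 655 ± 331 in Sox9-GOF, 670 ± 127 in the HGG libraries labelled Sox9-LOF and 656 ± 375 in controls, where control 3 had 223 and the other two had 882 and 861. Sox4 lies at chr13:28948919-28953713 on mm10, the build of all gene positions here, and overlaps Gm26735 on the opposite strand. Counts of overlapping genes are uncertain, as the strand setting of the counting is not given in the sources used here. The log2 fold change of Sox4 in HGG Sox9-GOF against controls was 0.15, with a 95% interval from -1.34 to 1.65, which holds changes of more than 1 log2 unit in either direction.

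Sox11, at chr12:27334264-27342574, had 627, 222 and 291 rescaled counts in EPN Sox9-GOF and 353, 344 and 308 in EPN controls. In HGG it had 473, 625 and 395 in Sox9-GOF, 706, 647 and 368 in the HGG libraries labelled Sox9-LOF and 1095, 246 and 253 in controls. The groups overlapped in all of these comparisons, and HGG control 1 stood far above the other controls. Its log2 fold changes were 0.08 (SE 0.37, limma adjusted p = 0.941) in EPN Sox9-GOF against controls, 0.28 (SE 0.60, adjusted p = 0.822) in HGG Sox9-GOF and 0.43 (SE 0.62, adjusted p = 0.751) in the HGG libraries labelled Sox9-LOF.

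Sox12, an activator of the same kind expressed more widely, was the SoxC gene that passed a test, between the control groups of the models. The gene lies at chr2:152393611-152398063. It had 239, 137 and 210 rescaled counts in EPN controls and 806, 767 and 332 in HGG controls. Every EPN control lay below every HGG control, with a log2 fold change of -1.63 (SE 0.41, limma adjusted p = 0.0441). Sox12 had 307, 82.8 and 237 rescaled counts in EPN Sox9-GOF, which overlap the EPN controls (log2 fold change -0.02, SE 0.50). In HGG it had 279, 475 and 191 in Sox9-GOF and 272, 442 and 171 in the HGG libraries labelled Sox9-LOF, both below 2 of the 3 HGG controls and overlapping control 3. The log2 fold changes against HGG controls, -0.98 (SE 0.47, limma adjusted p = 0.278) and -1.11 (SE 0.48, adjusted p = 0.304), did not pass. The call between the control groups was lost without any one of the EPN controls (limma adjusted p = 0.103 to 0.158), without HGG control 1 (adjusted p = 0.0667), without HGG control 2 (adjusted p = 0.0967) and when the trend with GC content and length was removed (log2 fold change -1.32, adjusted p = 0.0966).

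Measured per kilobase, so that genes can be compared, Sox12 took 28.0%, 26.8% and 23.8% of the SoxC reads in HGG Sox9-GOF, 19.9%, 30.6% and 19.9% in the HGG libraries labelled Sox9-LOF and 36.4%, 45.2% and 49.2% in HGG controls. The share was lower in each library of both Sox9 groups than in each HGG control. A 2-sided exact permutation test of the share gave p = 0.1 for both, the smallest that 3 libraries against 3 allow. In EPN Sox9-GOF the share was 22.4%, 10.8% and 23.1%, against 23.1%, 15.6% and 23.2% in EPN controls, so these groups overlapped. Such a share carries any trend with GC content: the transcript of Sox12 has 59.9% G and C, that of Sox4 51.1% and that of Sox11 46.5%. Sox4 took the largest share in each library of both EPN groups (53.1% to 73.6% in Sox9-GOF and 58.5% to 63.5% in controls). The same held in each HGG Sox9-GOF library (46.5% to 54.3%) and each HGG library labelled Sox9-LOF (45.3% to 57.1%). In HGG controls Sox4 took 37.1%, 47.1% and 30.7%, above Sox12 in controls 1 and 2 and below it in control 3.

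**Figure D2:**
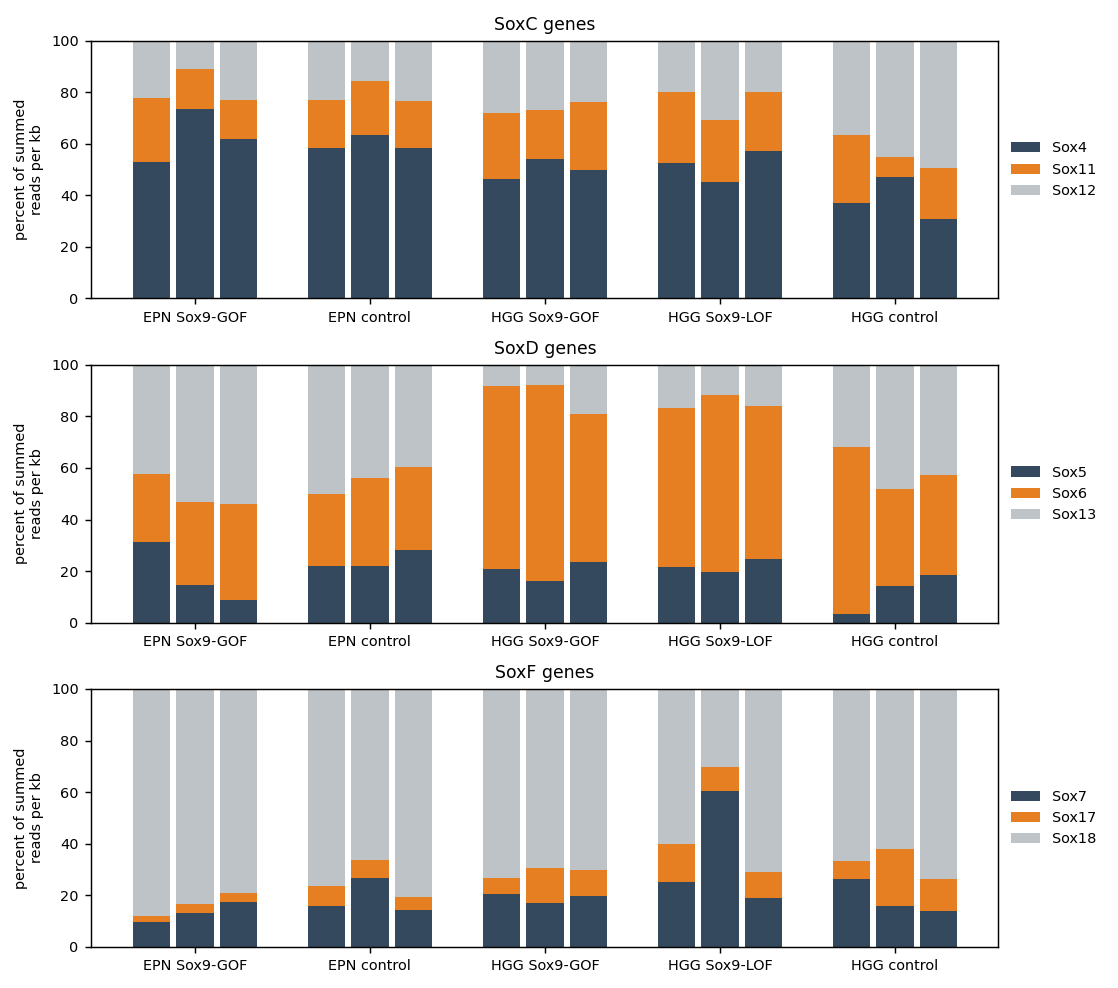
Share of each gene in the summed reads per kilobase of exon of its group (percent, stacked bars from 0), for SoxC, SoxD and SoxF, with 1 bar per library and 3 bars per group. Sox13 (grey, middle panel) took 7.89% to 19.1% of SoxD in HGG Sox9-GOF, 11.8% to 16.5% in the HGG libraries labelled Sox9-LOF and 31.7% to 48.1% in HGG controls, and 39.7% to 53.8% in both EPN groups.

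Among the SoxD genes, Sox13 had a negative log2 fold change against controls in both HGG comparisons, and Sox5 and Sox6 had positive ones, none of which passed limma's test. Sox13, at chr1:133382303-133424377 and known in mouse from gamma-delta T cells, had 48.8, 82.2 and 85.9 rescaled counts in HGG Sox9-GOF, 77.2, 62.4 and 81.2 in the HGG libraries labelled Sox9-LOF and 207, 336 and 113 in HGG controls. Each of the 6 libraries with a Sox9 genotype lay below each control. The log2 fold change was -1.47 (SE 0.47, limma adjusted p = 0.137; DESeq2 adjusted p = 0.0214) in HGG Sox9-GOF against controls. In the HGG libraries labelled Sox9-LOF it was -1.44 (SE 0.43, limma adjusted p = 0.193; DESeq2 adjusted p = 0.0238). Limma fitted to all 15 libraries, which share 1 estimate of the spread, called both (adjusted p = 0.0177 and 0.0346), beside 14.8% and 7.19% of all genes tested. Removing the trend of fold change with GC content and length moved the log2 fold changes to -0.79 and -0.90.

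In EPN the groups overlapped for Sox13: 252, 276 and 412 rescaled counts in Sox9-GOF, against 220, 298 and 216 in controls (log2 fold change 0.38, SE 0.25, limma adjusted p = 0.533). The test of the difference itself, the effect of Sox9-GOF in EPN minus that in HGG, gave 1.83 (SE 0.55, limma adjusted p = 0.0675). None of the 9 genes passed this test, beside 6.1% of all genes tested, and 2 of 9 (Sox13 and Sox5) had an unadjusted limma p under 0.05, beside 27.2%. DESeq2 called 1 of 9, Sox13 (1.95, adjusted p = 0.0105), beside 15.1% of all genes tested, and limma on all 15 libraries called it too (adjusted p = 0.0416), beside 10%. Without HGG control 3 limma called it as well (2.23, adjusted p = 0.0178), and after the GC and length correction the difference was 1.42 (adjusted p = 0.158).

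Sox5, which in mouse cortex acts in deep-layer neurons, had 411, 565 and 351 rescaled counts in HGG Sox9-GOF and 76.2, 334 and 162 in HGG controls. All 3 Sox9-GOF libraries lay above all 3 controls, the closest pair being 351 and 334. The log2 fold change was 1.45 (SE 0.54, limma adjusted p = 0.183), and 0.80 after the GC and length correction. The libraries labelled Sox9-LOF had 336, 348 and 417 (log2 fold change 1.17, SE 0.52, limma adjusted p = 0.312), just above control 2 on this scale; on the scale of their own deposited table they overlap the controls. EPN libraries spread from 227 to 619 in Sox9-GOF and from 322 to 513 in controls (log2 fold change -0.36, SE 0.41). The effect of Sox9-GOF on Sox5 in EPN minus that in HGG was -1.83 (SE 0.73, limma adjusted p = 0.137), and -0.88 after the GC and length correction. Sox5 at chr6:143828425-144781977 overlaps 7 other annotated genes, 2 of them on its own strand, and Sox6 overlaps 2 on the opposite strand.

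Sox6, at chr7:115470872-116038796 and known from interneurons and oligodendrocyte precursors in mouse brain, had 1459, 2715 and 894 rescaled counts in HGG Sox9-GOF, 993, 1240 and 1028 in the HGG libraries labelled Sox9-LOF and 1453, 904 and 356 in HGG controls. In EPN it had 541, 582 and 981 in Sox9-GOF and 418, 801 and 599 in controls. The groups overlapped in each comparison with controls, and the log2 fold changes were 0.25 (SE 0.31) in EPN Sox9-GOF, 1.00 (SE 0.62) in HGG Sox9-GOF and 0.47 (SE 0.49) in the HGG libraries labelled Sox9-LOF, with limma adjusted p from 0.386 to 0.756.

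The ratio of Sox6 to Sox13 separated both Sox9 groups of HGG from the HGG controls. The log2 ratio of Sox6 to Sox13 reads was 4.88, 5.03 and 3.36 in HGG Sox9-GOF, 3.67, 4.29 and 3.64 in the HGG libraries labelled Sox9-LOF and 2.81, 1.42 and 1.65 in HGG controls. Each Sox9 library of HGG lay above each control, and the mean difference was 2.47 for Sox9-GOF and 1.91 for the HGG libraries labelled Sox9-LOF. A 2-sided exact permutation test gave p = 0.1 for both, the smallest that 3 libraries against 3 allow. It was run 108 times over shares, ratios and sums. In EPN the same ratio was 1.10, 1.08 and 1.25 in Sox9-GOF and 0.93, 1.43 and 1.46 in controls, which overlap. A ratio between genes of 1 library does not depend on the size factor of that library. It does carry any trend with GC content: the transcript of Sox13 has 60.8% G and C, that of Sox6 46.1% and that of Sox5 44.8%. In HGG Sox9-GOF against controls the GC and length correction moved the log2 fold change of Sox6 from 1.00 to 0.42. It moved that of Sox13 from -1.47 to -0.79.

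**Figure D3:**
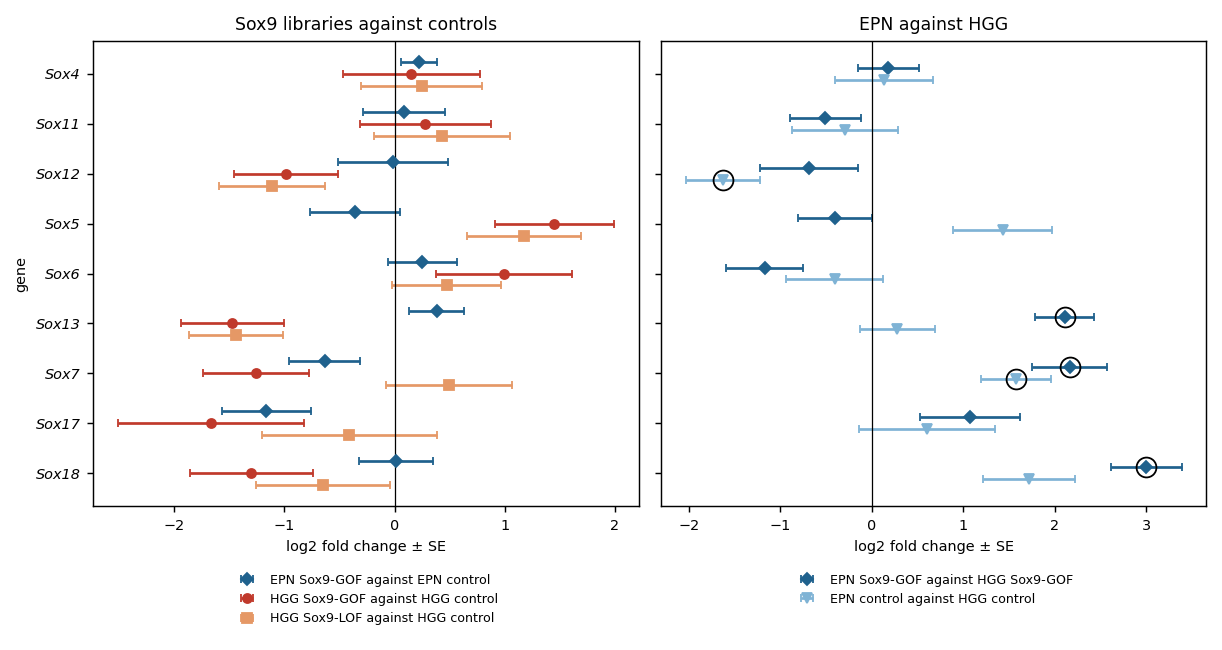
Log2 fold change (points) with its SE (bars) of the 9 genes, on the left for the Sox9 groups against their own controls and on the right for EPN against HGG; open rings mark limma adjusted p under 0.05. No gene is ringed on the left; Sox12 and Sox7 are ringed between controls, and Sox18, Sox7 and Sox13 between the Sox9-GOF groups.

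The SoxF genes had the lowest counts, with 8 to 75 reads per library for Sox7, 6 to 49 for Sox17 and 13 to 214 for Sox18, so that a fold change on log2(value + 1) understates their differences. Sox7, an early endothelial factor at chr14:63943673-63950732, had 9.33, 8.81 and 7.02 rescaled counts in HGG Sox9-GOF, 25.7, 60.2 and 18.9 in the HGG libraries labelled Sox9-LOF and 15.9, 22.6 and 27.7 in HGG controls. All 3 HGG Sox9-GOF libraries lay below all libraries of both other HGG groups. The log2 fold change was -1.26 (SE 0.48, limma adjusted p = 0.190) against controls and -1.78 (SE 0.53, adjusted p = 0.620) against the HGG libraries labelled Sox9-LOF. In HGG Sox9-GOF against the HGG libraries labelled Sox9-LOF, limma called 0 of 9 genes and 0% of all genes tested, and DESeq2 0 of 9 and 0.727%. At an unadjusted limma p under 0.05 there were 2 of 9 (Sox7 and Sox17), beside 7.41% of all genes tested, and the groups did not overlap for the same 2, beside 13.6%. In HGG Sox9-GOF these genes averaged 8.38 and 6.61 rescaled counts, under the 10 of the filter. In comparisons with this group they passed it only through the other group, so these counts are a description.

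Sox17, a factor of arterial endothelium at chr1:4490931-4497354, had 12.3, 20.1 and 11.5 rescaled counts in EPN Sox9-GOF and 40.1, 31.6 and 31.1 in EPN controls. The groups did not overlap, and the log2 fold change was -1.16 (SE 0.41, limma adjusted p = 0.244). Sox7 was also lower in each EPN Sox9-GOF library (34.6, 52.3 and 37.4) than in each EPN control (56.0, 84.5 and 60.7), with a log2 fold change of -0.63 (SE 0.32, adjusted p = 0.420). In HGG, Sox17 had 4.31, 10.3 and 5.26 in Sox9-GOF, 22.2, 13.6 and 14.5 in the HGG libraries labelled Sox9-LOF and 6.35, 45.1 and 34.8 in controls. Control 1 lay within the range of Sox9-GOF, and the log2 fold change was -1.66 (SE 0.84, limma adjusted p = 0.298). Sox17 overlaps Gm37587, so its few reads are uncertain.

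Sox18, at chr2:181669836-181671640, which acts upstream of the lymphatic regulator Prox1 in mouse embryos, had 154, 166 and 84.5 rescaled counts in EPN Sox9-GOF and 133, 104 and 168 in EPN controls. These groups overlapped, with a log2 fold change of 0.01 (SE 0.34, 95% interval from -0.78 to 0.81). In HGG it had 16.5, 17.6 and 12.3 in Sox9-GOF, 30.4, 14.8 and 34.5 in the HGG libraries labelled Sox9-LOF and 19.8, 43.1 and 71.7 in controls. The Sox9-GOF libraries lay below all controls, with a log2 fold change of -1.30 (SE 0.56, limma adjusted p = 0.236), which the GC and length correction moved to -0.55. For the HGG libraries labelled Sox9-LOF against controls, the log2 fold changes were 0.50 (SE 0.57) for Sox7, -0.41 (SE 0.79) for Sox17 and -0.65 (SE 0.61) for Sox18, with limma adjusted p from 0.613 to 0.825.

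Between the models, 2 of the 9 genes passed limma's test in EPN controls against HGG controls, beside 15.3% of all genes tested: Sox12, lower in EPN as given above, and Sox7, higher (log2 fold change 1.57, SE 0.39, adjusted p = 0.0417). Sox18 was 1.72 (SE 0.51, limma adjusted p = 0.0669; DESeq2 adjusted p = 0.0214), with every EPN control above every HGG control. DESeq2 called 3 of 9 (Sox12, Sox18 and Sox7), beside 26.2% of all genes tested, limma on all 15 libraries called 4 of 9 (Sox5 as well), beside 27.6%, and limma with the GC and length trend removed called 1 of 9 (Sox18, 1.95, adjusted p = 0.0415), beside 12%. Groups did not overlap for 3 of 9 genes, beside 40.3% of all genes tested. The call of Sox7 was lost without any one of the EPN controls (limma adjusted p = 0.112 to 0.181), without HGG control 2 (adjusted p = 0.0703) and without HGG control 3 (adjusted p = 0.0531). Sox5 was 1.43 (SE 0.54, limma adjusted p = 0.120) and passed without HGG control 2 (1.96, adjusted p = 0.0372).

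A comparison of the Sox9-GOF groups of the models was added after the values had been seen. In EPN Sox9-GOF against HGG Sox9-GOF, 3 of 9 genes passed limma's test beside 40.7% of all genes tested, so this share is near the background; all 3 were higher, as were 19.6% of all genes tested. Sox18 differed by 3.00 on the log2 scale (SE 0.39, adjusted p = 0.000847), Sox7 by 2.16 (SE 0.41, adjusted p = 0.00473) and Sox13 by 2.11 (SE 0.32, adjusted p = 0.00178). Sox17 was 1.07 (SE 0.55, adjusted p = 0.157), and Sox6 was -1.17 (SE 0.42, adjusted p = 0.0577). Groups did not overlap for Sox18, Sox7, Sox13 and Sox17, 4 of 9 genes, beside 55% of all genes tested. Sox7 and Sox17 passed the filter on low values there only through the EPN libraries. Without EPN Sox9-GOF 1, limma called 5 of 9 genes, beside 5276 of 14995 genes tested. Sox11 (-0.94, limma adjusted p = 0.0393) and Sox5 (-0.86, adjusted p = 0.0478) then passed as lower.

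Genes of endothelium as a whole also differed between the models, and in bulk tissue fewer cells of a type and less RNA per cell cannot be told apart. Of 20 endothelial genes, 11 passed limma's test as higher in EPN controls than in HGG controls, and none as lower (median log2 fold change 1.99, beside 0.0025 over all genes tested). With Sox9-GOF in both models, 14 of the 20 were called higher and none lower (median 1.53, beside 0.042), among them the junction protein gene Cdh5 (2.62, SE 0.22). Over all genes tested, limma called 15.3% between the controls and 40.7% between the Sox9-GOF groups, in either direction. Against their own controls, 1 of 20 had a positive log2 fold change in EPN Sox9-GOF (median -0.47) and 7 of 20 in HGG Sox9-GOF (median -0.34), and limma called none in either (DESeq2 called 2 and 3 lower). The summed count of the 20 genes was 5668, 7639 and 4242 in EPN Sox9-GOF, 7897, 9274 and 8921 in EPN controls, 2685, 2185 and 2006 in HGG Sox9-GOF, 3538, 2283 and 2855 in the HGG libraries labelled Sox9-LOF and 1978, 3190 and 4039 in HGG controls.

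Set against that sum, SoxF transcripts were lowest in HGG Sox9-GOF. Sox7, Sox17 and Sox18 together made 11.2, 16.8 and 12.2 rescaled counts per 1000 counts of the endothelial genes in HGG Sox9-GOF, 22.1, 38.8 and 23.8 in the HGG libraries labelled Sox9-LOF and 21.3, 34.7 and 33.2 in HGG controls. In EPN they made 35.5, 31.2 and 31.5 in Sox9-GOF and 29.0, 23.7 and 29.1 in controls. The ratio was lower in each HGG Sox9-GOF library than in each of the other 12 libraries. It rests on few reads there: 13, 12 and 8 for Sox7, 6, 14 and 6 for Sox17 and 23, 24 and 14 for Sox18. Sox7 and Sox17 averaged under the 10 of the filter in that group. How often such a ratio sets a group apart for other genes was not tested. The ratio also carries any trend with GC content: the transcript of Sox18 has 60.9% G and C, that of Sox7 51.0% and that of Sox17 52.6%. The EPN groups did not overlap either, with Sox9-GOF above controls, although the summed SoxF count itself (201, 238 and 133 in EPN Sox9-GOF, 229, 220 and 260 in EPN controls) overlapped.

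For single genes per 1000 endothelial counts, Sox7 was 3.48, 4.03 and 3.50 in HGG Sox9-GOF and 8.03, 7.07 and 6.86 in HGG controls, and Sox18 was 6.15, 8.06 and 6.12 in HGG Sox9-GOF and 10.03, 13.5 and 17.8 in HGG controls. Both were lower in each Sox9-GOF library than in each control. Sox17, at 1.604, 4.70 and 2.62 in HGG Sox9-GOF and 3.21, 14.1 and 8.61 in HGG controls, overlapped. In the HGG libraries labelled Sox9-LOF, Sox18 was 8.59, 6.46 and 12.1, which overlaps Sox9-GOF. Sox7 (7.27, 26.4 and 6.63) and Sox17 (6.28, 5.97 and 5.07) were higher there than in each HGG Sox9-GOF library. In EPN, Sox17 was lower in Sox9-GOF (2.16, 2.63 and 2.72) than in controls (5.08, 3.40 and 3.49), and Sox18 was higher (27.2, 21.7 and 19.9 in Sox9-GOF, 16.9, 11.2 and 18.8 in controls). Sox7, lower by its rescaled count in each EPN Sox9-GOF library, overlapped on this scale (6.11, 6.85 and 8.83 in Sox9-GOF, 7.09, 9.11 and 6.80 in controls). In a 2-sided exact permutation test of each single gene's ratio, the pairs of groups that did not overlap gave p = 0.1, the smallest that 3 libraries against 3 allow, and Sox17 in HGG gave p = 0.2. None of these ratios could pass 0.05 in this design, and the 20 endothelial genes were chosen with earlier results of these data known.

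**Figure D4:**
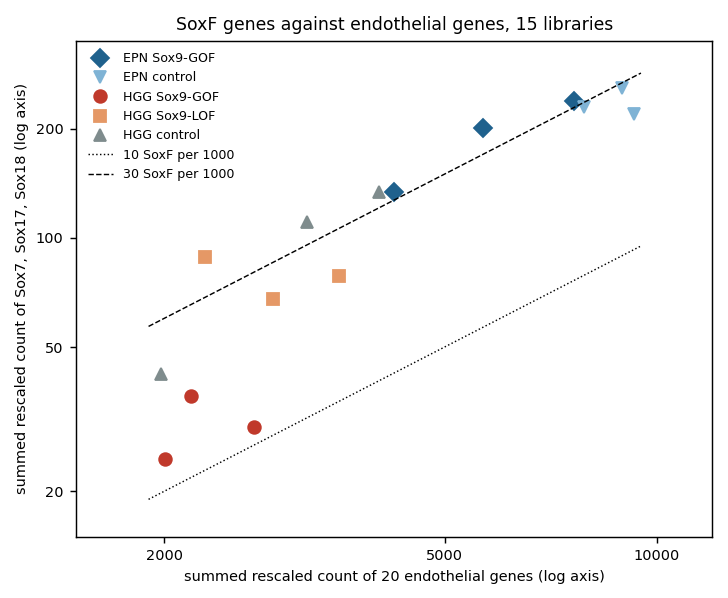
Summed rescaled count of Sox7, Sox17 and Sox18 against that of 20 endothelial genes in each of the 15 libraries (both axes log), with guide lines of equal ratio. The HGG Sox9-GOF libraries lie lowest at 11.2, 16.8 and 12.2 per 1000, and the other 12 libraries lie between 21.3 and 38.8 per 1000.

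Of 14 arterial and lymphatic genes, 3 were called higher in EPN controls than in HGG controls (median log2 fold change 0.76 over 13 measured), among them the Notch ligand gene Dll4 (2.29, SE 0.38). Limma called 15.3% of all genes tested in that comparison, in either direction. In EPN Sox9-GOF against HGG Sox9-GOF, 3 were called higher and 4 lower of 12 measured, beside 40.7% of all genes tested (19.6% as higher). Dll4 was higher (3.16, SE 0.45), and Prox1, which also marks neural cells, was lower (-4.004, SE 0.60, adjusted p = 0.00163). Sox18 was higher in that comparison, so Sox18 and Prox1 differed in opposite directions.

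Lists of genes linked to the SoxC and SoxD genes are described by their counts in EPN controls against HGG controls, where limma called 15.3% of all genes tested. Of 15 measured immature neuron genes, 2 were called higher and 4 lower in EPN controls than in HGG controls (median log2 fold change -0.92), among them Dcx of migrating neurons (-2.22, SE 0.30). Of 11 measured cartilage genes that SOX9 and the SoxD proteins share in mouse, 4 were called higher and none lower (median 2.99), including the collagen gene Col9a1 (4.05, SE 0.83). Of 14 oligodendrocyte lineage genes, none was called higher and 4 lower (median -1.62), including Olig2 (-3.16, SE 0.41). Of 9 deep-layer neuron genes, limma called 1 higher and none lower (6 positive and 3 negative log2 fold changes, median 0.06), and DESeq2 called 1 higher and 1 lower. Limma called 0 of 10 measured interneuron genes, all with negative log2 fold changes (median -0.93), and DESeq2 called 1 lower. Beside these, Sox5, Sox6 and Sox13 did not pass in the same comparison, with log2 fold changes of 1.43, -0.41 and 0.28.

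Against their own controls limma called none of the genes in these lists in any of the 3 comparisons. The median log2 fold changes of the cartilage genes were 0.23 in EPN Sox9-GOF, 0.98 in HGG Sox9-GOF and -0.65 in the HGG libraries labelled Sox9-LOF. Those of the oligodendrocyte lineage genes were -1.70, -0.83 and -0.55 in the same order. Immature neuron genes had -1.29, 0.19 and 0.33. In EPN Sox9-GOF against controls DESeq2 called 751 of 15227 genes lower and 107 higher, among them 4 of 14 measured immature neuron genes as lower. Genes of other cell types were called lower there too: 8 of 10 mature neuron genes (median -2.29), 5 of 10 astrocyte genes (median -1.55), 4 of 8 measured interneuron genes (median -1.93) and 3 of 14 oligodendrocyte lineage genes. Sox4, Sox11 and Sox12 had log2 fold changes of 0.22, 0.08 and -0.02 in this comparison, and the part of these cell types in them was not tested.

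**Figure D5:**
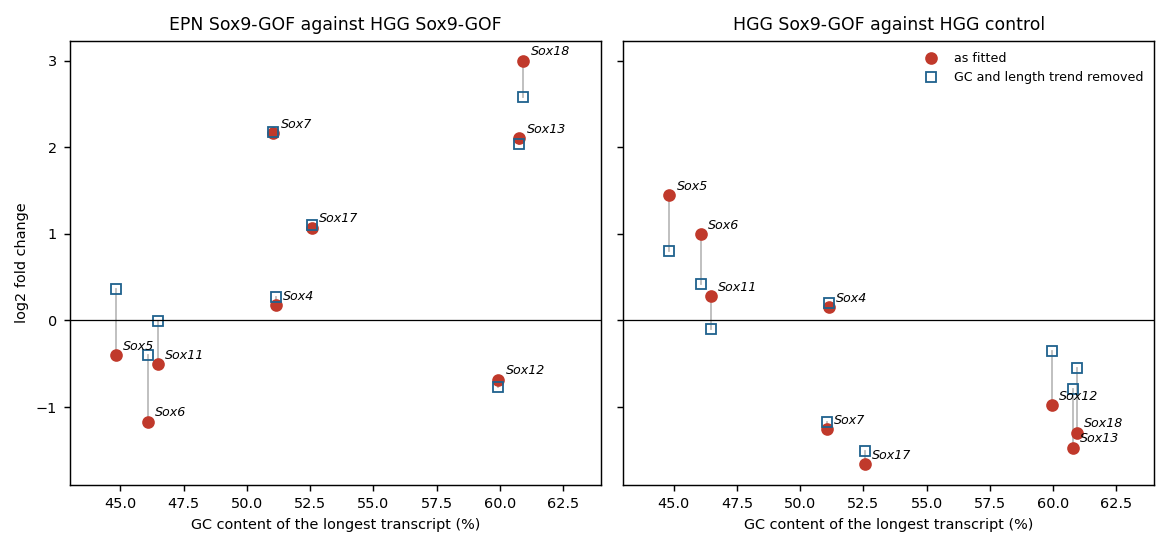
Log2 fold change of each gene against the GC content of its longest transcript (percent), as fitted (filled) and after removing the trend with GC content and length over all genes (open), for EPN Sox9-GOF against HGG Sox9-GOF (left) and HGG Sox9-GOF against HGG controls (right). On the right Sox12, Sox13 and Sox18, at 59.9% to 60.9% G and C, move toward 0 and so do Sox5 and Sox6, while Sox7 moves from -1.26 to -1.18 and Sox17 from -1.66 to -1.51. On the left Sox18, Sox7 and Sox13 stay at 2.58, 2.18 and 2.03.

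The GC content of the transcripts ran with fold change over all genes in HGG. Spearman's rho across genes, which are not independent replicates, was -0.58 in HGG Sox9-GOF against controls, -0.47 in the HGG libraries labelled Sox9-LOF and -0.0085 in EPN Sox9-GOF against controls. It was -0.27 in HGG Sox9-GOF against the HGG libraries labelled Sox9-LOF and -0.25 in EPN controls against HGG controls. For EPN Sox9-GOF against HGG Sox9-GOF it was 0.15, and for the difference of effects 0.41. Sox12 (59.9%), Sox13 (60.8%) and Sox18 (60.9%) lie above the upper quartile of transcript GC content (53.8%), and Sox5, Sox6 and Sox11 (44.8% to 46.5%) lie below the median of 48.6%. In HGG Sox9-GOF against controls the correction moved Sox12 to -0.35, Sox18 to -0.55, Sox13 to -0.79, Sox5 to 0.80, Sox6 to 0.42 and Sox11 to -0.10, against 0.28 as fitted. Sox7 (-1.18) and Sox17 (-1.51) kept log2 fold changes near those fitted. Between the Sox9-GOF groups, EPN over HGG, Sox18 (2.58), Sox7 (2.18) and Sox13 (2.03) passed with the correction too, 3 of 9 genes beside 43.8% of all genes tested. Sox7 passed the filter on low values there only through the EPN libraries. Without the correction, at a mean of at least 50, limma called 2 of 7 genes (Sox13 and Sox18), beside 5272 of 12786 genes tested.

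The genes whose levels were most like each SOX gene over the 15 libraries, among 12903 genes with a mean of at least 50 (12904 for Sox7 and Sox17), are given as a description with no test, since the libraries fall into groups that share a model. For Sox18 these were Tie1, Arap3 and Gata2 (Pearson's r of log2 levels 0.97, 0.96 and 0.94), Tie1 being an endothelial receptor kinase. Sox17 was most like Kank3, Rasip1 and Apcdd1 (0.89, 0.86 and 0.86), and Sox7 most like Ppic, Esam and Ubac2 (0.89, 0.88 and 0.88), where Esam encodes an endothelial adhesion molecule. Sox13 was most like Sema3b, Six5 and Map3k11 (0.96 each), Sox6 most like Bcl2l13, Zfp146 and Sbf2 (0.94, 0.90 and 0.87) and Sox5 most like Ptprg, Kctd12b and Peg3 (0.86, 0.86 and 0.85). Sox12 was most like Lsm14b, H2afy2 and Gemin5 (0.89, 0.89 and 0.86), Sox11 most like Iars, Utp6 and Tfdp1 (0.89, 0.87 and 0.86) and Sox4 most like Lig3, Polr1a and Hnrnph1 (0.88, 0.87 and 0.87). None of the 9 genes was among the 3 most like another of them.

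Per kilobase of exon, Sox4 had the highest mean level of the 9 genes in EPN Sox9-GOF (144 ± 18.6 rescaled counts per kilobase), in EPN controls (127 ± 8.52) and in HGG Sox9-GOF (137 ± 69.0), where Sox6 was close behind (114 ± 62.9). Sox4 was also highest in the HGG libraries labelled Sox9-LOF (140 ± 26.5). In HGG controls Sox12 (143 ± 59.0) and Sox4 (137 ± 78.2) overlapped (SD, n = 3 each). Sox17 had the lowest mean in each group, from 1.39 ± 0.67 in HGG Sox9-GOF to 7.18 ± 1.07 in EPN controls. Sox18, with 83.2 ± 27.1 in EPN Sox9-GOF and 83.3 ± 19.9 in EPN controls, ranked behind Sox4 alone in EPN, against 9.55 ± 1.74 in HGG Sox9-GOF, 16.4 ± 6.43 in the HGG libraries labelled Sox9-LOF and 27.7 ± 16.0 in HGG controls.

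Of the 11 other Sox genes, 7 passed the filter on low values. In EPN Sox9-GOF against HGG Sox9-GOF limma called 1 of them higher (Sox9) and 4 lower, including Sox8 (-3.17, SE 0.47), Sox2 (-1.92, SE 0.36) and Sox1 (-3.32, SE 0.67), with log2 fold changes from -3.32 to 0.63 and a median of -1.92. Limma called 40.7% of all genes tested there. The SoxC genes had a median of -0.51 there, the SoxD genes -0.40 and the SoxF genes 2.16, beside 0.042 over all genes tested.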

How the data were processed

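RNA was sequenced from tumour tissue as 15 mouse libraries in 5 groups of 3. Per the labels' protocols, frozen tumour RNA was purified with an RNeasy kit and libraries were made with TruSeq Stranded mRNA. Per the submitters' processing notes, mm10, STAR 2.5.0a and DESeq2 1.30.1 were used. The deposited values (signal) are gene counts that the authors divided by 1 size factor per library within each of 3 tables. Whole reads were recovered from them (100% of values within 0.001 read), and HGG control reads were identical for 24421 genes in both HGG tables, so these controls enter once.

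Within-table comparisons used the deposited values. Comparisons across tables used reads rescaled over all 15 libraries by the median of ratios. Genes with a mean of at least 10 were tested with limma 3.58.1 (trend) on log2(value + 1) in R 4.3.3, with Benjamini-Hochberg adjustment at 0.05. On that scale the fold changes of low genes come out too small. DESeq2 1.42.0 and edgeR 4.0.16 on recovered reads were alternatives, with a pseudocount of 8, no filter, a mean of at least 50, TMM scaling, all 15 libraries, a replicate block, a GC and length correction, and leaving out each library. The tests were checked on simulated counts with an equal dispersion in all genes and with changes in genes of a mean of at least 50. Neither the spread among HGG controls nor changes in genes below that mean were simulated.

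Same-numbered libraries deviated together in HGG Sox9-GOF against HGG controls (correlations 0.178, 0.443 and 0.224), but so did Sox9-GOF 1 and control 3 (0.295). In HGG Sox9-GOF against the HGG libraries labelled Sox9-LOF the same-numbered correlations were 0.082, 0.168 and 0.275. The block changed no call in either comparison. The 9 genes and the gene lists were chosen with earlier results of these data known, and other genes are named as the 3 smallest adjusted p of a list or the 3 most alike. Gene positions and overlaps are from GENCODE for mm10.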

Additional observations from a re-analysis of the deposited data

How the results depend on the processing

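Of 1044 values of the 9 genes under alternative settings, 946 kept direction and side of the threshold, 63 turned direction, 18 came past the threshold and 17 lost it; the cause was not tested. DESeq2 called 1 gene against HGG controls in Sox9-GOF, 1 in the HGG libraries labelled Sox9-LOF and 1 for the difference of EPN and HGG effects, as did limma on all 15 libraries, which called 4 in EPN controls against HGG controls. Shares over all genes for these settings are given above. In EPN controls against HGG controls no filter gave 1 (beside 2179 of 19661 genes tested) and a mean of at least 50 gave 1 (2175 of 12895). The GC and length correction gave 1 (1802 of 15001). The replicate block, where the numbers share no pairing, gave 0 (1142 of 15105), also with the correction (1067 of 15001). Leaving out 1 library gave 0 to 2 there, beside 368 to 3633 of all genes. For the difference of effects it gave 0 to 1, beside 44 to 2135 of all genes. In EPN Sox9-GOF against HGG Sox9-GOF it gave 3 to 5, beside 4691 to 5644.

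Direction turned as follows (log2). In the HGG libraries labelled Sox9-LOF against HGG controls, Sox4 was -0.011 in edgeR. In HGG Sox9-GOF against controls, Sox11 was -0.069 in DESeq2, -0.088 in edgeR and -0.098 with the GC correction, with and without the block. For EPN Sox9-GOF over controls, Sox12 was 0.15 in DESeq2, 0.095 in edgeR and 0.21 with the GC correction, and Sox18 was -0.0047 in edgeR and -0.033 on all 15 libraries. In HGG Sox9-GOF against Sox9-LOF, Sox4 was 0.0012 and Sox13 0.0084 in edgeR, and Sox13 0.12 with the GC correction. In EPN controls against HGG controls, Sox4 was -0.11 in DESeq2 and -0.12 in edgeR. For the difference of effects, Sox4 was -0.0029 with TMM, Sox11 0.29 in DESeq2, 0.28 in edgeR and 0.39 with the GC correction, and Sox6 0.14 with it. In EPN Sox9-GOF against HGG Sox9-GOF, Sox5 was 0.36 with it.

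Leaving out 1 library turned these. Against HGG controls, in the HGG libraries labelled Sox9-LOF, Sox4 ran from -0.40 to 0.58, Sox6 from -0.090 to 0.92 and Sox17 from -1.23 to 0.096, and in Sox9-GOF Sox4 from -0.50 to 0.49 and Sox11 from -0.078 to 0.99. In EPN Sox9-GOF against controls, Sox11 ran from -0.36 to 0.40, Sox12 from -0.40 to 0.55, Sox6 from -0.012 to 0.47 and Sox18 from -0.17 to 0.32. In HGG Sox9-GOF against Sox9-LOF, Sox4 ran from -0.51 to 0.12, Sox11 from -0.47 to 0.00073, Sox12 from -0.25 to 0.44 and Sox13 from -0.20 to 0.20. In EPN controls against HGG controls, Sox4 ran from -0.52 to 0.47, Sox11 from -0.65 to 0.42, Sox6 from -0.97 to 0.046, Sox13 from -0.13 to 0.66 and Sox17 from -0.21 to 1.111. For the difference of effects, Sox4 ran from -0.29 to 0.70, Sox11 from -0.93 to 0.15 and Sox17 from -0.037 to 1.29. Between the Sox9-GOF groups Sox4 ran from -0.066 to 0.56. Sox7 and Sox17 rest on few reads in each library (8 to 75 and 6 to 49).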
